A study of Mus musculus with 7 samples.

Results

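Heat shock proteins of the cytosol fold new proteins and refold damaged ones, and the genes described here encode the core of that machinery in mouse germinal centre B cells that lack R-Ras2, set against wild-type (WT) cells. They were chosen by name: Hspa1a, Hspa1b, Hspa8, Hsph1, Dnajb1, Dnaja1, Hsp90aa1, Hsp90ab1 and Hsf1, each through the brightest array probe annotated to that gene symbol alone. Of these 9 genes 6 had such a probe, among 21515 genes in all, and all 6 were among the 16136 genes bright enough to be tested. Hsp90ab1, Dnaja1 and Hsf1 were not analysed here. None of the 6 owed its place to a single bright array, since each stayed above the limit for dim genes (3.48 on the log2 scale) when its highest array was left out.

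The samples were germinal centre B cells (B220+, CD95+ and GL7+) sorted from spleens of mice that had received sheep red blood cells 7 days earlier, a treatment that both genotypes shared. There were 3 RRas2-deficient and 4 WT samples, called biological replicates in the labels, each read on 1 whole-transcript array as log2 intensity. A description line spells the genotype Rras-deficient, and the labels used here give no allele, promoter, strain, age or pooling of animals. Per its title, the study asked what R-Ras2, a RAS-related GTPase, does in germinal centre formation and when B cells need much energy.

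In such cells HSP70 proteins hold unfolded stretches of other proteins in cycles driven by ATP, J-domain proteins deliver the clients and start the ATP step, and HSP110 proteins help to release the spent nucleotide. HSP90 takes over later folding steps, often of kinases and steroid receptors. Under heat or other protein-damaging stress the transcription factor HSF1 binds repeats of a short element before its target genes and switches on the inducible forms, while other forms are made at all times.

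Arrays differed in ways that genotype does not account for. Log2 intensities had an interquartile range of 2.37 to 2.49 on 3 arrays (RRas2-deficient replicate 2 and WT replicates 1 and 2, called narrower below) and 2.69 to 2.91 on the other 4 (called wider below). Rras2 itself read 6.93, 6.68 and 7.12 in RRas2-deficient replicates 1 to 3, against 7.13, 7.41, 8.66 and 8.39 in WT replicates 1 to 4, so the highest RRas2-deficient and the lowest WT sample lay side by side. Its log2 difference was -0.99 ± 0.39 (limma SE, unadjusted p = 0.0415, adjusted p = 1.00). Of 14 germinal centre B cell markers 11 were measured, and their mean log2 intensity was 9.25 to 10.15 in RRas2-deficient and 9.33 to 10.47 in WT samples. Bcl6, the repressor that defines germinal centre B cells, read 9.30 to 9.90 in RRas2-deficient samples and 9.07 to 10.02 in WT samples, and the T cell receptor gene Cd3e read 3.55 to 3.95 and 3.57 to 4.64.

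Across the 6 measured chaperone genes no difference between genotypes passed the test. Adjusted p-values were 1.00 for all 6 (limma, Benjamini-Hochberg over 16136 genes), and 0 of 6 had an unadjusted limma p under 0.05. Over all tested genes 0.0124% passed the adjusted threshold, which is 2 genes (Gm1966 and Trim12a, both lower in RRas2-deficient cells and named after their values were seen), and 0.818% had an unadjusted p under 0.05. The mean was lower in RRas2-deficient cells for 6 of 6 genes, against 48.4% of all tested genes, with a median log2 difference of -0.27 beside 0.0049 over all of them. For 0 of 6 genes were the genotypes free of overlap, against 1.08% of all tested genes. Hspa1a and Hspa1b are near-identical copies, so they do not count as separate observations. Their log2 differences were -0.03 and 0.04 without WT replicate 1. In bulk RNA such as this, fewer cells of a type and less RNA per cell cannot be told apart.

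**Figure D1:**
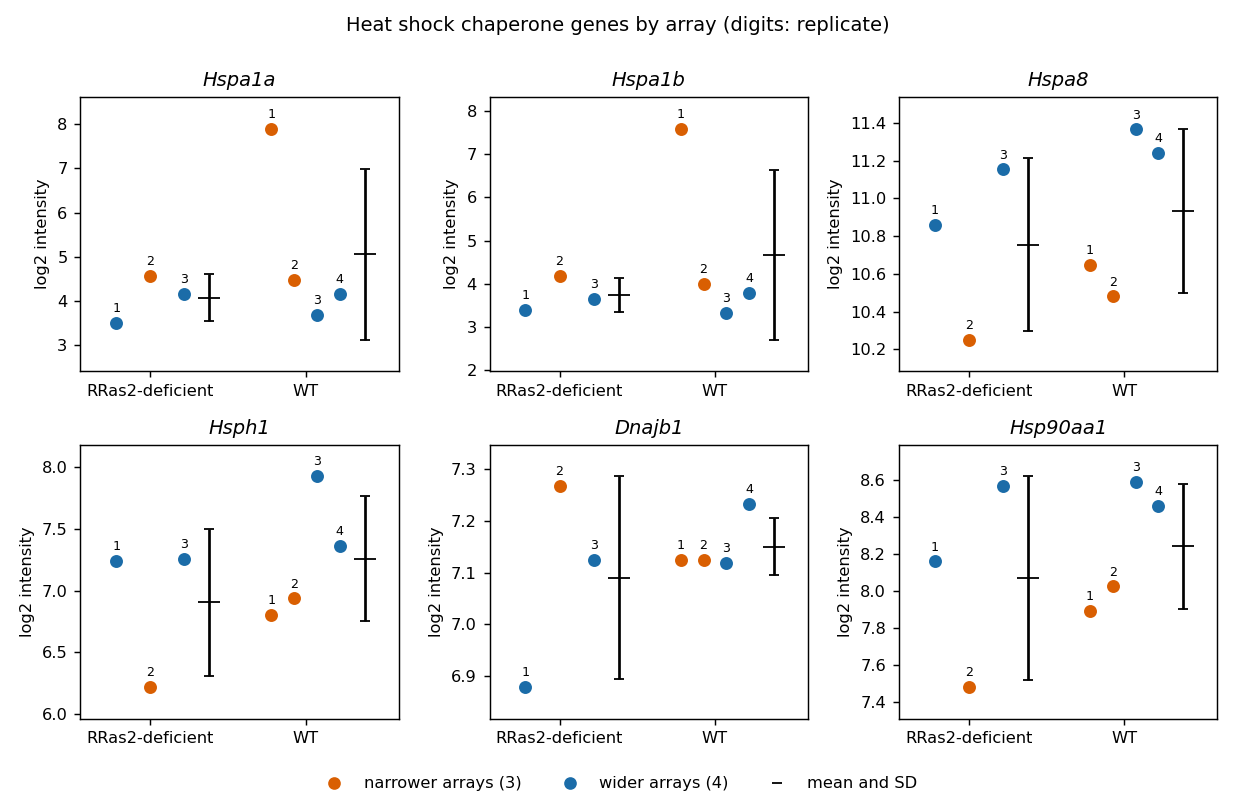
Log2 intensity (vertical axes, a scale of its own for each gene) of the 6 chaperone genes on each array, RRas2-deficient left and WT right, with digits for replicates, colours for the narrower and wider arrays, and bars for mean and SD. Hspa1a and Hspa1b stand at 7.89 and 7.59 on WT replicate 1 alone, while Hspa8, Hsph1 and Hsp90aa1 are higher on the 4 wider arrays than on the 3 narrower ones.

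Hspa1a (gene ID 193740) and Hspa1b (gene ID 15511) encode the stress-inducible HSP70. They lie close together on chromosome 17, and their promoters are much alike. The 250 bases before each annotated start are shown 5′ to 3′ from RefSeq (GRCm38.p6, minus strand), Hspa1a at chr17:34972157-34972406 and Hspa1b at chr17:34959239-34959488. Capitals mark GAANNTTC or TTCNNGAA, searched on both strands (each reads the same on either). These are 2 alternating units out of the repeats that make up the heat shock element of HSF1.
Hspa1a: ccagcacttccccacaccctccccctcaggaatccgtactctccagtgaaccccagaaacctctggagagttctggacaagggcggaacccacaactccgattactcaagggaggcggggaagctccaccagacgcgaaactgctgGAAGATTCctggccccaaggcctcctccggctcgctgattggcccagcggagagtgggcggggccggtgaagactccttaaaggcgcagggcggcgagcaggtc
Hspa1b: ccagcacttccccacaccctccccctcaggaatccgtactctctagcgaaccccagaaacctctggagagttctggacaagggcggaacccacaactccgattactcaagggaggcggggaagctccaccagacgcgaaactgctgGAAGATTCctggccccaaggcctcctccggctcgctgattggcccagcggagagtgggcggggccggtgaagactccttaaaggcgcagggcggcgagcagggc
Over the full window of 300 bases (250 before to 50 after the start) the promoters of Hspa1a and Hspa1b differ at 4 positions, C44T, T47C, T249G and C276T, with the Hspa1a base first and positions counted from the first base of the window. The shared match GAAGATTC lies 104 to 97 bases before the start in both. Such a match was present in 15.1% of all 32851 RefSeq windows, and it is a description of letters and not of binding.

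The inducible HSP70 genes were near the dim limit on 6 arrays and bright on 1. Hspa1a read 3.50, 4.57 and 4.15 in RRas2-deficient replicates 1 to 3, against 7.89, 4.48, 3.68 and 4.15 in WT replicates 1 to 4. Hspa1b read 3.40, 4.19 and 3.65 in RRas2-deficient samples, against 7.59, 4.01, 3.33 and 3.78 in WT samples. WT replicate 1 thus stood 3.32 (Hspa1a) and 3.40 (Hspa1b) above the next highest array, and the other 6 arrays overlapped between genotypes. The mean of Hspa1a was 4.08 ± 0.54 (SD, n = 3) in RRas2-deficient and 5.05 ± 1.92 (SD, n = 4) in WT cells, a log2 difference of -0.97 ± 1.00 (limma SE) with a 95% interval from -3.36 to 1.41. For Hspa1b the difference was -0.93 ± 1.01 with an interval from -3.33 to 1.47. Without WT replicate 1 the log2 differences were -0.03 for Hspa1a and 0.04 for Hspa1b.

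A further probe was annotated to Hspa1a and Hspa1b together and therefore not used for either. It shared the peak on WT replicate 1, at lower values, but not the order of the other arrays. It read 3.33, 3.55 and 3.07 in RRas2-deficient samples, against 4.49, 3.55, 3.50 and 3.55 in WT samples, again highest on WT replicate 1. Only the promoters of the 2 genes were compared here, and not their transcripts or the probes. Whether an array probe reads both transcripts was not tested, so the values of Hspa1a and Hspa1b are uncertain as measures of either gene alone.

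WT replicate 1 was also the single bright array for genes that are no chaperones. On that array 14 of 16136 tested genes stood at least 2 log2 units above every other array. The count was 2 (Kcnma1 and Eif2s3y) on WT replicate 3 and 0 on each of the other 5 arrays. Hspa1b and Hspa1a were the 4th and 5th largest such gaps over all tested genes and arrays. The other 12 genes included 5 microRNA genes (Mir101c read 9.41 there, against 3.22 to 4.74 on the other arrays), 2 vomeronasal receptor genes, named for the organ in which such pheromone receptors act (Vmn1r103 and Vmn1r94), and Srsy, Speer4d, Gm26504, Gm5797 and BC061237. These genes were picked after their values were seen. Speer4d passed the limit for dim genes (3.48) only through WT replicate 1, since it read 3.33 to 3.42 on the other arrays. The rest were not checked for this as the 6 members were. The other measured heat shock genes did not follow: on WT replicate 1 Hsph1 read 6.80, Hsp90aa1 7.89 and Dnajb1 7.12, each within the range of the other arrays. T cell markers (9 of 10 measured) also had their highest mean there, with 4.00 to 4.21 in RRas2-deficient samples, and 4.63 on WT replicate 1 against 3.94 to 4.20 on the other WT arrays. The part of these genes and markers in the Hspa1a and Hspa1b values was not tested.

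**Figure D2:**
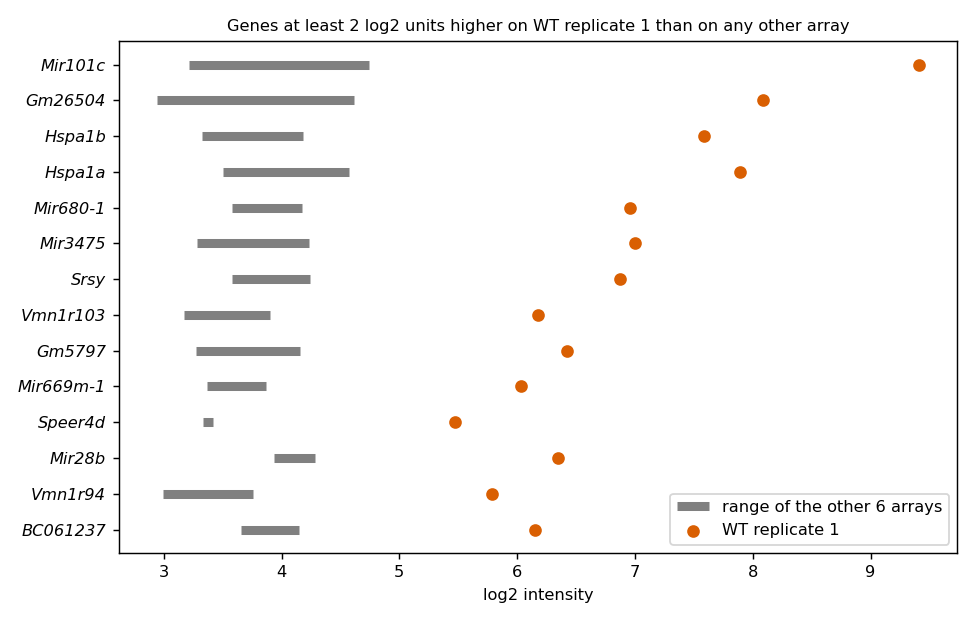
Log2 intensity (horizontal axis) of the 14 genes that read at least 2 log2 units higher on WT replicate 1 (points) than on any of the other 6 arrays (bars: lowest to highest). Hspa1a and Hspa1b sit among genes such as Mir101c and Srsy, with 7.89 and 7.59 on WT replicate 1 and at most 4.57 and 4.19 elsewhere.

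Hspa8 (gene ID 15481) encodes HSC70, the HSP70 made in unstressed cells. It read 10.86, 10.25 and 11.15 in RRas2-deficient replicates 1 to 3, against 10.64, 10.48, 11.37 and 11.24 in WT replicates 1 to 4. The genotypes overlapped over all 7 arrays, and the 4 wider arrays (10.86 to 11.37) all lay above the 3 narrower ones (10.25 to 10.64). Within the narrower arrays the RRas2-deficient sample was the lowest, and within the wider arrays both RRas2-deficient samples lay below both WT samples. Its mean was 10.76 ± 0.46 (SD, n = 3) in RRas2-deficient and 10.93 ± 0.44 (SD, n = 4) in WT cells, a difference of -0.18 ± 0.30 (SE) on the log2 scale, with a 95% interval from -0.89 to 0.53. A second probe, annotated jointly to Hspa8 and the small nucleolar RNA gene Snord14e and not used for either, ran the other way over the arrays. It read 10.45, 11.88 and 9.16 in RRas2-deficient samples, against 11.14, 11.73, 9.86 and 9.74 in WT samples, so it was brighter on the 3 narrower arrays than on the 4 wider ones.

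Hsph1 (gene ID 15505) encodes HSP110, the nucleotide exchange partner of HSP70. The 250 bases before the first annotated start of Hsph1 are shown from the minus strand of chr5:149636337-149636586 (GRCm38.p6), with the same letters in capitals. Below them is a site just after that start at chr5:149636287-149636308, which holds 3 alternating units.
Hsph1: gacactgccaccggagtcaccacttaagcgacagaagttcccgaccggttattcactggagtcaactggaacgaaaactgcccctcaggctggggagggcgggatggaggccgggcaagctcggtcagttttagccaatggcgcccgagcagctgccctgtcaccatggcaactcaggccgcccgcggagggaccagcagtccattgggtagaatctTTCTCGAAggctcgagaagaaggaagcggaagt
Hsph1 site: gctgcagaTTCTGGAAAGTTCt
The match before the start, TTCTCGAA, lies 33 to 26 bases upstream, and the match after it, TTCTGGAAAGTTC, holds TTCTGGAA and GAAAGTTC in overlap. The 3-unit form (GAANNTTC followed by NNGAA, or TTCNNGAA followed by NNTTC, each the other's reverse complement) was present in 0.603% of all windows. RefSeq gave windows for 4 of the 6 measured genes, Hspa1a, Hspa1b, Hsph1 and Dnajb1. Of these 3 held the 2-unit letters, 1 (Hsph1) held the 3-unit letters, and Dnajb1 held neither in its windows.

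For Hsph1 the readings were 7.24, 6.22 and 7.26 in RRas2-deficient replicates 1 to 3, against 6.80, 6.94, 7.93 and 7.36 in WT replicates 1 to 4. The lowest array was RRas2-deficient replicate 2 and the highest WT replicate 3, and the genotypes overlapped. Within each of the array sets, though, every RRas2-deficient sample lay below every WT sample. The mean was 6.91 ± 0.60 (SD, n = 3) in RRas2-deficient and 7.26 ± 0.51 (SD, n = 4) in WT cells, a log2 difference of -0.35 ± 0.36 (SE) with a 95% interval from -1.21 to 0.51. The difference shrank to -0.01 without RRas2-deficient replicate 2 and to -0.13 without WT replicate 3.

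Dnajb1 (gene ID 81489), an inducible HSP40 with a J-domain that feeds clients to HSP70, was the least variable of the 6 genes over the arrays. It read 6.88, 7.27 and 7.12 in RRas2-deficient samples, against 7.12, 7.12, 7.12 and 7.23 in WT samples. RRas2-deficient replicate 3 and WT replicates 1 and 2 held exactly the same value, and 48.3% of tested genes had at least 1 such tie between arrays. Both the lowest and the highest array were RRas2-deficient. The mean was 7.09 ± 0.20 (SD, n = 3) in RRas2-deficient and 7.15 ± 0.06 (SD, n = 4) in WT cells, a log2 difference of -0.06 ± 0.11 (SE) with a 95% interval from -0.32 to 0.20. Without RRas2-deficient replicate 1 the difference was 0.05.

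Hsp90aa1 (gene ID 15519) encodes the stress-inducible HSP90. It read 8.16, 7.48 and 8.57 in RRas2-deficient replicates 1 to 3, against 7.89, 8.03, 8.59 and 8.46 in WT replicates 1 to 4. As for Hspa8 and Hsph1, its lowest array was RRas2-deficient replicate 2 and its highest WT replicate 3. The mean was 8.07 ± 0.55 (SD, n = 3) in RRas2-deficient and 8.24 ± 0.34 (SD, n = 4) in WT cells, a log2 difference of -0.17 ± 0.29 (SE) with a 95% interval from -0.87 to 0.52. Without RRas2-deficient replicate 2 the differences turned to 0.12 for Hsp90aa1 and 0.07 for Hspa8.

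Since the array sets moved with these genes, each difference was also taken within them. Hspa8, Hsph1 and Hsp90aa1 were higher on all 4 wider arrays than on any narrower one (mean log2 difference, wider minus narrower, of 0.70, 0.80 and 0.65), as were 26.9% of all tested genes. Markers of the sorted population moved with them: 10 of 11 measured germinal centre B cell markers were higher on every wider array than on any narrower one (median log2 difference over the list, wider minus narrower, of 0.60). Their mean log2 intensity was 10.15, 9.25 and 10.12 in RRas2-deficient replicates 1 to 3, against 9.33, 9.36, 10.47 and 10.25 in WT replicates 1 to 4. The part of these markers in the chaperone values was not tested. Hspa1a and Hspa1b were lower on all 4 wider arrays than on any narrower one, as were 2195 of 16136 tested genes. Dnajb1 overlapped. Within both sets the RRas2-deficient mean was the lower one for 5 of 6 genes, against 28.6% of all tested genes, and the exception was Dnajb1 (0.14 within the narrower and -0.17 within the wider arrays). Hspa1a and Hspa1b, near-identical copies, are among these 5. Their difference within the narrower arrays (-1.61 for each) came from WT replicate 1. There RRas2-deficient replicate 2 (4.57 and 4.19) lay above WT replicate 2 (4.48 and 4.01). Within the wider arrays they differed by -0.09 and -0.03. Every RRas2-deficient sample lay below every WT sample within both sets for 2 of 6 genes, Hspa8 and Hsph1, against 7.64% of all tested genes. The probe annotated jointly to Hspa8 and Snord14e did not show this order. Within the narrower arrays its RRas2-deficient sample was the highest, and within the wider arrays the genotypes overlapped. For Hsph1 the log2 difference was -0.65 within the narrower and -0.40 within the wider arrays, and for Hspa8 it was -0.31 and -0.30. The narrower set holds 1 RRas2-deficient sample, so it gives no spread for that genotype.

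With the array set as a block in limma, Hsph1 differed by -0.50 ± 0.15 (SE, unadjusted p = 0.0109, adjusted p = 0.373) and Hspa8 by -0.30 ± 0.10 (SE, unadjusted p = 0.0195, adjusted p = 0.410). In that limma model Hsp90aa1 differed by -0.29 ± 0.13 (SE, unadjusted p = 0.0615, adjusted p = 0.515). None of the 6 genes passed there, while 10.1% of all tested genes had an unadjusted p under 0.05 and 0.0124% an adjusted p under 0.05. Markers of germinal centre B cells and plasma cells moved with Hsph1 and Hspa8 in this model. Of the former 10 of 11 were lower in RRas2-deficient cells (median log2 difference of -0.16, against 6 of 11 and -0.0097 without the block). So were 7 of 7 plasma cell markers (median -0.25), beside 51.0% of all tested genes. T cell markers were lower in 6 and higher in 3 cases, myeloid markers in 2 and 6, and erythroid markers in 1 and 2. Among the plasma cell markers Sdc1 and Tnfrsf17 were highest on WT replicate 1. The part of these marker lists in the blocked differences was not tested. When limma was given each array's interquartile range as a number, without the sets, the differences were -0.28 for Hsph1 (adjusted p = 0.942), -0.12 for Hspa8 (adjusted p = 0.950) and -0.12 for Hsp90aa1 (adjusted p = 0.952). Both RRas2-deficient samples of the wider set had smaller interquartile ranges (2.73 and 2.69) than both WT samples of it (2.91 and 2.78), so spread and genotype cannot be told apart there.

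**Figure D3:**
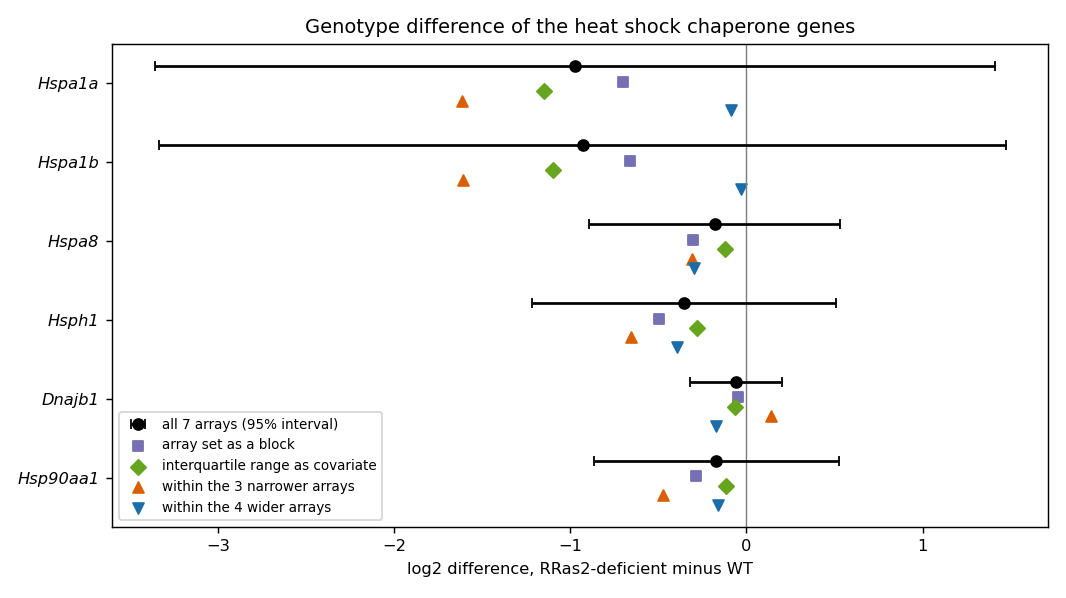
Log2 difference, RRas2-deficient minus WT (horizontal axis), of the 6 chaperone genes over all 7 arrays with the limma 95% interval, and as point values with the array set as a block, with the interquartile range as a covariate, and within each array set. All 6 intervals include 0, and the Hsph1 values lie between -0.65 and -0.28.

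Hspa8, Hsph1 and Hsp90aa1 had like profiles over the arrays. After each gene was centred on its own mean, the root mean square distance between log2 profiles over 7 arrays was 0.12 for Hspa8 and Hsp90aa1, 0.20 for Hspa8 and Hsph1 and 0.20 for Hsph1 and Hsp90aa1. The distance was 0.12 for Hspa1a and Hspa1b, and at least 1.36 from either to any other of the 6 genes. Among the other 16135 tested genes the profile closest to Hspa1a was that of Hspa1b, followed by Srsy (0.37). Hspa8 was closest to Hltf and Terf1 (0.06 for each), Hsph1 to Ppm1d (0.05) and Thumpd3 (0.08), and Hsp90aa1 to Wrn and Nsfl1c (0.06 for each). Dnajb1 lay closest to Tex48 and to the related J-domain gene Dnajb4 (0.03 for each), in a profile that spans 0.39 in all. These distances describe 7 arrays that share the division into sets, and many other genes followed that division.

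The wider chaperone network showed no gene past the test. Of 103 genes in 9 lists of chaperones and their partners 92 were tested, and 0 passed in either direction (limma, adjusted p = 1.00 for each gene named here), with 0 at an unadjusted p under 0.05. In the 7 cytosolic lists 29 of 73 tested genes had lower and 44 higher means in RRas2-deficient cells, with a median log2 difference of 0.03 beside 0.0049 over all tested genes and -0.27 for the 6 core genes. That balance turned when the array set was a block, with 49 of the 73 genes lower and 24 higher (median -0.08, against -0.40 for the core genes in the same model), and 0 past the adjusted threshold. Hspa1a and Hspa1b, near-identical copies, weigh on both core medians. Without WT replicate 1 they differed by -0.03 and 0.04 in either model. The other core genes differed by -0.35 (Hsph1), -0.18 (Hspa8), -0.17 (Hsp90aa1) and -0.06 (Dnajb1) without the block. Of 16 HSP90 co-chaperones tested, proteins that load and time HSP90, 5 were lower and 11 higher (median 0.03), against 12 lower and 4 higher with the block (median -0.09). The members of lowest p were Unc45a, a myosin chaperone that works with HSP90, at -0.29 ± 0.17 (SE), and the phosphatase gene Ppp5c at 0.10 ± 0.11. Among 14 other J-domain genes 6 were lower and 8 higher (10 and 4 with the block), with Dnajb14 at 0.14 ± 0.08 and Dnaja4 at 0.10 ± 0.11. Among 9 genes of HSP70 nucleotide exchange and its regulators 4 were lower and 5 higher (6 and 3 with the block), with the exchange factor gene Hspbp1 at -0.20 ± 0.24 and the HSF1-inducible co-chaperone gene Bag3 at 0.14 ± 0.18.

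Other HSP70 and HSP110 genes were lower in 2 and higher in 5 of 7 cases, with Hspa4l at 0.10 ± 0.10 and Hspa12b at 0.11 ± 0.12 (log2 difference ± SE). The TRiC chaperonin, a ring that folds actin and tubulin, and prefoldin, which hands clients to it, had 8 of 13 genes lower (median -0.03), and 12 with the block (median -0.22), with Pfdn5 at -0.23 ± 0.19 and Cct3 at -0.22 ± 0.40. Small heat shock proteins, which hold unfolded clients without ATP, had 1 of 8 genes lower, with Hspb8 at 0.14 ± 0.13 and Hspb7 at -0.06 ± 0.11. Of 6 tested heat shock factor genes and regulators 3 were lower, and 5 with the block, with Hsf5 at 0.25 ± 0.16 and Hsf4 at -0.12 ± 0.11.

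In the organelles, 7 of 7 mitochondrial chaperone genes had lower means in RRas2-deficient cells (median -0.23), beside 48.4% of all tested genes, and 0 passed, beside 0.0124% of all tested genes. Among them were the HSP90 relative Trap1 at -0.17 ± 0.16 (log2 difference ± SE) and the J-domain gene Dnaja3 at -0.31 ± 0.34. Endoplasmic reticulum chaperones were lower in 8 of 12 cases (median -0.07), with the J-domain gene Dnajb9 at -0.52 ± 0.25 and Sdf2l1, a partner of J-domain proteins there, at -0.28 ± 0.18. When the array set entered the model as a block, 67 of the 92 genes of the 9 lists were lower and 25 higher, with 0 past the adjusted threshold, beside 51.0% lower over all tested genes.

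Like Hspa8, Hsph1 and Hsp90aa1, 57 of these 92 genes were higher on every wider than on every narrower array, and 4 were lower. Over all 16136 tested genes 4344 (26.9%) were higher in this way and 2195 lower. The mean log2 intensity of 13 TRiC and prefoldin genes was 8.09, 7.03 and 8.24 in RRas2-deficient replicates 1 to 3, against 7.27, 7.36, 8.57 and 8.16 in WT replicates 1 to 4. The immediate early genes (among them Fos and Egr1), known to be induced fast by many stimuli and by cell isolation, showed the opposite order. The mean over 25 of them was 6.41, 7.86 and 6.76 in RRas2-deficient samples, against 7.43, 7.76, 6.38 and 6.97 in WT samples. They were highest on RRas2-deficient replicate 2, where Hspa8, Hsph1 and Hsp90aa1 were lowest, whereas Hspa1a and Hspa1b were second highest there. The part of this difference between arrays in the chaperone values was not tested.

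**Figure D4:**
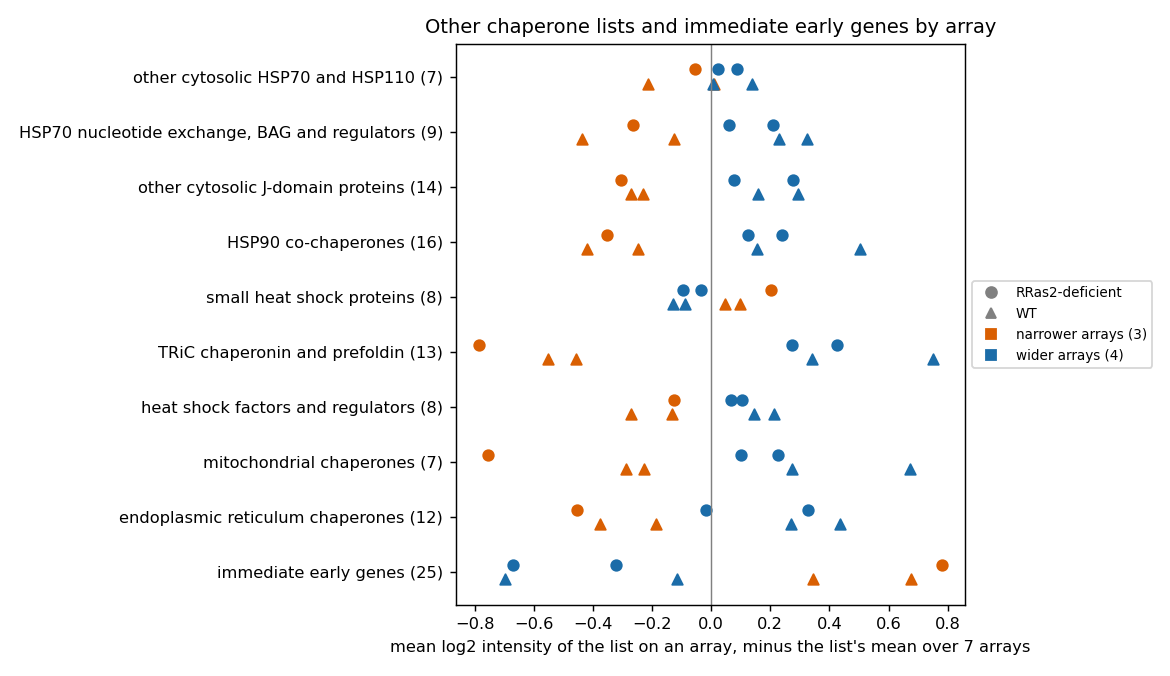
Mean log2 intensity of each list on an array minus the mean of that list over 7 arrays (horizontal axis), with circles for RRas2-deficient and triangles for WT samples, colours for the array sets, and the number of measured genes in brackets. The means of the TRiC and prefoldin list and of the mitochondrial list are higher on the 4 wider arrays. So are 11 of 13 and 6 of 7 of their genes singly, beside 26.9% of all tested genes. The mean of the immediate early list is higher on the 3 narrower arrays, as are 20 of its 25 genes, beside 2195 of 16136 tested genes.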

How the data were processed

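The authors deposited log2 intensity for 25349 probes on each of 7 arrays, made with RMA and oligo (no versions), per the submitters' processing notes. No genome build is named there. Values ran from 1.96 to 13.4, genes were not centred and no arrays were identical. Precision is limited by how few arrays there are.

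Genes were named from the platform annotation (22225 probes with 1 symbol, 616 with several, 2508 with none, the last 2 kinds unnamed). The brightest probe of a gene was kept, and genes under the 25th percentile of mean intensity (3.48) were left out. RRas2-deficient minus WT was fitted per gene in limma 3.58.1 (R 4.3.3) without covariates and tested two-sided with eBayes, adjusted by Benjamini-Hochberg over 16136 genes at a threshold of 0.05. The code was tested on simulated data. No label ties a sample to an animal, so p-values reflect only how these samples spread, which may be technical.

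The members, the gene lists, the array sets (split where interquartile ranges lay farthest apart, at 2.59) and the alternatives were chosen with earlier results of these data known. Genes named beside the members are the 2 of lowest p of each list and the 2 closest profiles of each member. Outside that rule, and after their values were seen, those singled out on WT replicates 1 and 3, the 2 genes past the threshold and the marker genes were named. Promoter windows are those of RefSeq (GRCm38.p6). A planned comparison of proteins was not run.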

Additional observations from a re-analysis of the deposited data

Results flagged for a closer look

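In groups of 4 arrays an array was singled out when its gap to the nearest of the others, divided by the range of the group, was above Dixon's 95% critical value, and chance does so in about 1 of 20 groups. Of 22 sets of WT values examined (the 6 measured members, Rras2 and the array means of 15 lists) 2 were singled out. Hspa1b on WT replicate 1 read 7.59 (ratio 0.84), and the near-identical Hspa1a missed the limit there (7.89, ratio 0.811). Dnajb1 on WT replicate 4 read 7.23 (ratio 0.959) beside 7.12 on each of the other 3 WT arrays, of which 2 held the same value. Groups of 3 arrays were not examined.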

How the results depend on the processing

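No member passed an adjusted p of 0.05 under any alternative run, over 143 limma tests whose lowest adjusted p was 0.225 (Hsph1 with the array set as a block, without WT replicate 4). All 6 members were lower after another quantile step, after centring on array medians, with array weights, and with either correction for array spread. Averaging probes, a robust prior with intensity trend, and either change of the filter left each log2 difference as it was. Signs under those settings were thus fixed in advance. The 50th percentile filter (4.53) kept 5 members, all lower, and removed Hspa1b. Hspa1a passed it only through WT replicate 1 (mean 4.63 over all arrays, 4.09 without that array). Leaving out each array gave 4 to 6 members lower, and 5 to 6 with the block. Signs turned for Hspa1b without WT replicate 1 (0.041, with and without the block), for Hspa8 (0.073) and Hsp90aa1 (0.12) without RRas2-deficient replicate 2, and for Dnajb1 without RRas2-deficient replicate 1 (0.045, with and without the block), with the block and without WT replicate 4 (0.012), and within the narrower arrays (0.14). Leaving out each array gave log2 differences from -1.43 to -0.03 for Hspa1a, -1.38 to 0.04 for Hspa1b, -0.38 to 0.07 for Hspa8, -0.53 to -0.01 for Hsph1, -0.15 to 0.05 for Dnajb1 and -0.42 to 0.12 for Hsp90aa1. Over all genes 2 passed, against 1 with centring, 5 with array weights, 0 with the replicate number as a block, 0 to 2 without each array in turn and 1 to 2 when the array set block was added. The cause of these changes was not tested. The letters of the heat shock element were found in 3 members with 2 units and in 1 with 3.

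The replicate number as a block, which leaves WT replicate 4 without a partner, called 0 members and gave -1.27 for Hspa1a, -1.23 for Hspa1b, -0.08 for Hspa8, -0.32 for Hsph1, -0.03 for Dnajb1 and -0.10 for Hsp90aa1. Deviations of same-numbered arrays correlated at -0.59, 0.78 and 0.66 over genes. Such correlations were positive for all pairs of arrays within a set and negative for all pairs between sets. They therefore cannot show whether the numbers pair the samples.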

Other observations

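Markers of plasma cells, which secrete antibody and make heavy use of chaperones of the secretory pathway, had lower means in RRas2-deficient cells for 7 of 7 tested genes (median log2 difference of -0.17), beside 48.4% of all tested genes. None passed (limma, 0 of 7 past an adjusted p of 0.05, beside 0.0124% of all tested genes, and 0 at an unadjusted p under 0.05, beside 0.818%). Of the 2 genes of lowest p in that list, Prdm1, the repressor that drives plasma cell fate, differed by -0.27 ± 0.19 (SE) and the transcription factor gene Irf4 by -0.48 ± 0.43. The mean log2 intensity of the 7 genes was 6.87, 6.61 and 7.07 in RRas2-deficient replicates 1 to 3, against 6.91, 6.92, 7.28 and 7.18 in WT replicates 1 to 4. The count of 7 leans on WT replicate 1 through Sdc1. Sdc1 read 5.295 to 5.414 in RRas2-deficient samples, 5.661 on WT replicate 1 and 5.276 to 5.329 on the other WT arrays. Tnfrsf17, near the dim limit, read 3.737 to 3.795, 4.306 and 3.759 to 3.852 in the same order. It was thus also highest on WT replicate 1, but its RRas2-deficient mean stays the lower one without that array.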
